A study of Mus musculus with 4 samples.

Results

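The 41 genes described here encode the machinery that copies chromosomal DNA in S phase and the factors that start it. They were chosen as a list of gene symbols, and each of the 41 symbols matched 1 row of the deposited table, which holds expression values for 24473 genes. The study sequenced 4 RNA libraries from BV-2, a line of mouse microglia immortalised for culture. There were 2 libraries labelled SIX2 knockdown, with titles sh s1 and sh s2, and 2 control libraries labelled wild type (WT), with titles sh c1 and sh c2. SIX2 is a homeobox transcription factor. Cells of both groups had received LPS (lipopolysaccharide, from the outer membrane of bacteria) at 100 ng/mL for 24 h, so no library came from unstimulated cells. The titles of both groups carry the prefix sh, the hairpin sequences are not given in the sources used here, and nothing says whether the libraries of a group were separate cultures or whether the knockdown line was a single clone. The p-values therefore rest on library-to-library spread alone, and that spread may be technical.

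Before a chromosome is copied, the origin recognition complex with CDC6 and CDT1 loads the ring-shaped MCM helicase onto DNA, and CDC45 and the GINS complex then switch it on. Behind the helicase, primase and the polymerases work on a sliding clamp, PCNA, that the RFC complex loads, while FEN1 and LIG1 join the lagging-strand pieces and CAF-1 and UHRF1 restore chromatin and DNA methylation. Many of these genes are switched on together at the end of G1 by E2F transcription factors. The RB protein holds E2F back until cyclin-dependent kinases (CDK) have phosphorylated it. BV-2 cells proliferate in culture, and no library of other or unstimulated cells was at hand to set these levels against.

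The promoters of these genes are shown first, because E2F-type sites are the feature the list is known to share. RefSeq promoter windows on build GRCm38.p6, which run from 250 bases before to 50 bases after an annotated start, were at hand for 33 of the 41 genes (38 windows). The E2F site was searched on both strands in the 8-letter forms TTTCCCGC, TTTGGCGC, TTTCGCGC and TTTGCCGC. At least 1 match lay in a window of 13 of the 33 genes (39.4%), against 4.8% of 10418 tested genes with a window and 2.6% of all 27025 genes with one. The 7-letter core, each of these forms without its first T and so contained in every 8-letter match, was found in 22 of the 33 genes (66.7%), against 19.2% of tested genes and 10.9% of all genes. A match is a description of these letters, not evidence of binding.

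A stretch around 1 match is printed for each gene with a match that was higher in the knockdown libraries at an unadjusted p under 0.05 by edgeR. Mcm7, which has matches but near-equal levels in both groups, follows. The capitals are alike because only the listed forms were searched. The genes were picked by their expression, so the print does not tie the sites to it. Genes without a match also passed that limit, as given below. Capitals mark the match and the sequences read 5′ to 3′ on the gene's strand. The places are chr17:56304117-56304146 for Uhrf1, chr11:98908002-98908031 for Cdc6, chr4:108579416-108579445 for Orc1, chr1:128359734-128359763 for Mcm6, chr7:13278841-13278870 for Lig1, chr8:75109345-75109374 for Mcm5, chr1:20820275-20820304 for Mcm3 and chr5:138171849-138171878 for Mcm7.
Uhrf1: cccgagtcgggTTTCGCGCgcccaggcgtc
Cdc6: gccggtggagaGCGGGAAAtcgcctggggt
Orc1: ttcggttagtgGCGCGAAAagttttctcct
Mcm6: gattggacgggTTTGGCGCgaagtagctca
Lig1: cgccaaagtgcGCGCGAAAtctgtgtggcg
Mcm5: gcgccaagaacTTTCGCGCcaaaacgtcca
Mcm3: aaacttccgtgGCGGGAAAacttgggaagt
Mcm7: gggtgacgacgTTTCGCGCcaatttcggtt
The whole window of Mcm6, which holds more matches (3) than any other member's window, and the downstream window of Uhrf1, the member with the lowest p, follow with the matches in capitals. They cover chr1:128359656-128359955 (minus strand) and chr17:56304063-56304362 (plus strand).
Mcm6: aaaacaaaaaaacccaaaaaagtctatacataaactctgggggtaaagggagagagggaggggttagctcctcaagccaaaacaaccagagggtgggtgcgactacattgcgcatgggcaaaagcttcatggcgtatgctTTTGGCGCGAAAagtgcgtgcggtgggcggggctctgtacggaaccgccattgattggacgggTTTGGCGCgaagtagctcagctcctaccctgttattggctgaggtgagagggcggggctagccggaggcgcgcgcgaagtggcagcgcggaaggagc
Uhrf1: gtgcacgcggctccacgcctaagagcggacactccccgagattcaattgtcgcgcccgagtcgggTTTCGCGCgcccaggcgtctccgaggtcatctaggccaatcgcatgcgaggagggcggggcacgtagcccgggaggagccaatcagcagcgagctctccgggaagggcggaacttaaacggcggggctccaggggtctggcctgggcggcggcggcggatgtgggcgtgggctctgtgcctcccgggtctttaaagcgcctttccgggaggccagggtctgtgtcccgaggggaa

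**Figure D1:**
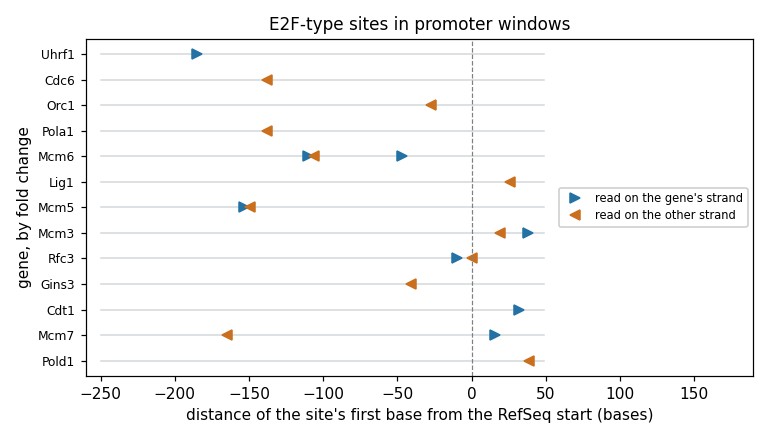
Distance of each E2F-type match from the RefSeq start, in bases, for the 13 genes with a match, ordered from the highest fitted fold change (Uhrf1) at the top; arrowheads give the strand on which the match reads. The 19 matches run from 185 bases before to 39 bases after this RefSeq start, which for some genes lies inside the gene model. Of them, 11 lie within 100 bases of it.

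The position of the matches varied from gene to gene, as the map of distances shows. Relative to the RefSeq start of its window, the first base of the match lay at -185 in Uhrf1 and at -138 in Cdc6. In Rfc3 a match began at the start itself. The deposited gene models of Uhrf1 and Cdc6 begin further upstream, at 56303321 and 98907801, so these matches lie inside the gene model. The Uhrf1 window that spans 56303321 held no 8-letter match. The matches of Lig1, Mcm7, Mcm3, Orc1, Rfc3, Gins3, Cdt1 and Pold1 also lay inside their gene models. Those of Mcm5, Mcm6 and Pola1 lay upstream of theirs. The whole E2f1 and Dut windows, which held no match, lay inside the gene models as well. Mcm5 and Mcm6 each held a pair of matches that overlap on opposite strands. Of the 13 genes with an 8-letter match, 7 reached an unadjusted p under 0.05 in the knockdown comparison, with a median log2 fold change of 0.21. Of the 20 genes with a window and no match, 8 did, with a median of 0.16. For the 7-letter core the medians stood the other way round, at 0.17 in the 22 genes with it and 0.20 in the 11 without it, and 9 and 6 of them were past the unadjusted limit. These differences were not tested.

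The knockdown libraries held 74.7 and 64.3 M estimated counts and the control libraries 75.7 and 61.0 M. The low values peaked at multiples of 4, so 1 sequenced fragment was taken as about 4 counts. Six2 itself had a count of 0 in all 4 libraries, so the knockdown could not be checked on its target (an upper limit of 12 counts, or 0.161 and 0.187 CPM in knockdown and 0.159 and 0.197 CPM in control libraries, for counting error only). Each of the 10 microglia and macrophage markers was detected in every library, with a summed level of 1339 and 1317 FPKM in knockdown and 1415 and 1480 FPKM in control libraries. Of them Adgre1, Csf1r and Aif1 fell (adjusted p = 0.0198, 0.0426 and 0.0440 by edgeR). The markers of neurons, astrocytes and fibroblasts stayed under 1 FPKM in all 4 libraries, as did 3 of 4 of both the oligodendrocyte and the endothelial markers. Neuron markers summed to 0.367 and 0 FPKM in knockdown and 0.869 and 0.696 FPKM in control libraries, and astrocyte markers to 0.183 and 0.106 FPKM in knockdown and 0.432 and 0.342 FPKM in control libraries. Oligodendrocyte markers summed to 1.21 and 0.0444 FPKM in knockdown and 2.03 and 1.88 FPKM in control libraries, endothelial markers, nearly all from Kdr, to 22.6 and 21.3 FPKM in knockdown and 22.1 and 22.7 FPKM in control libraries, and fibroblast markers to 0.0301 and 0.00872 FPKM in knockdown and 0.0707 and 0.0621 FPKM in control libraries. The part of these markers in the values below was not tested.

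Levels of the replication genes were compared between libraries as CPM (counts scaled to library size with TMM factors), and fold changes are knockdown over control on the log2 scale. The shift was small and mostly in 1 direction: 35 of the 41 genes (85.4%) had a fitted fold change above 0, against 48.9% of all genes tested, 6 (14.6%) had one below 0, against 51.1%, and the median over the list was 0.16, against -0.01 over all 15733 genes tested. All 41 genes passed the filter on low counts. By edgeR's quasi-likelihood test with Benjamini-Hochberg adjustment over all genes, 0 of the 41 passed an adjusted p of 0.05, against 150 (0.953%) of all genes tested in either direction (0.407% higher, 0.547% lower). The lowest adjusted p on the list was 0.0896, for Uhrf1. At an unadjusted p of 0.05, 17 of the 41 (41.5%) were higher and 0 lower, against 7.52% and 6.7% of all genes tested. DESeq2 called 6 of the 41, each higher, where it called 806 genes in all; limma-voom called 0 of the 41.

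The background also varied with expression level. The genes of the list had mean levels from 21.5 to 576 CPM, and among the 7103 tested genes at or above 21.5 CPM the median log2 fold change was 0.03, 56.7% were above 0 and 43.3% below, and 11.9% reached an unadjusted p of 0.05 in the higher direction. Of those 7103 genes 1.56% passed the adjusted limit (0.648% higher, 0.915% lower). The knockdown libraries did not overlap the control libraries, and lay above them, for 27 of the 41 genes (65.9%), against 23.8% of all genes tested and 31.5% of those at or above 21.5 CPM. They lay below them for 1 gene, Rfc5 (2.44%, against 23.8% of all genes tested). RNA was measured in bulk, so more cells in S phase and more transcript per cell cannot be told apart.

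**Figure D2:**
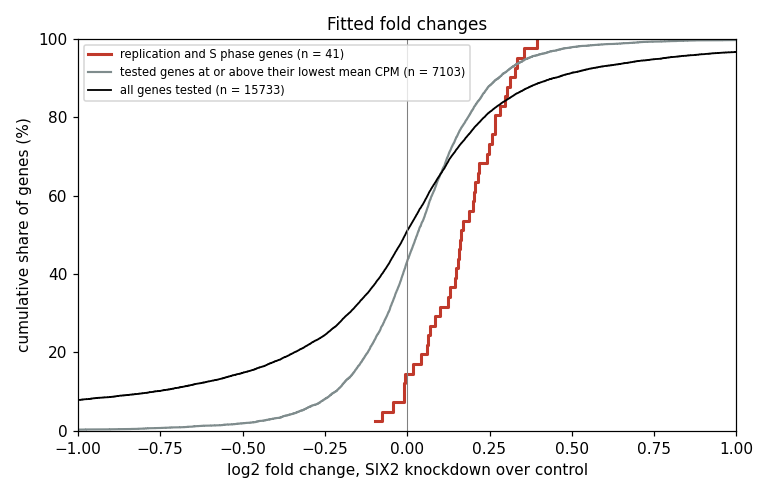
Cumulative share of genes (%) against the fitted log2 fold change, SIX2 knockdown over control, for the 41 replication and S phase genes (red), the 7103 tested genes at or above their lowest mean CPM (grey) and all 15733 genes tested (black); values beyond 1 in either direction lie outside the axis. The red curve lies to the right of the others over most of its length, with its median at 0.16, and ends at 0.40.

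The shift was present in each pairing of a knockdown with a control library. Across the list the median log2 difference was 0.15 for knockdown 1 over control 1, 0.20 for knockdown 1 over control 2, 0.13 for knockdown 2 over control 1 and 0.21 for knockdown 2 over control 2. In these pairings 33, 34, 34 and 37 of the 41 genes were higher in the knockdown library. Between replicates the median difference was -0.01 for knockdown 1 minus knockdown 2 and 0.03 for control 1 minus control 2, with 19 and 30 of the 41 genes above 0. The count for the control pair was thus close to the 33 of knockdown 1 over control 1, although its median difference was smaller. The summed level of the 41 genes was 1499 and 1507 FPKM in knockdown libraries and 1362 and 1363 FPKM in control libraries.

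**Figure D3:**
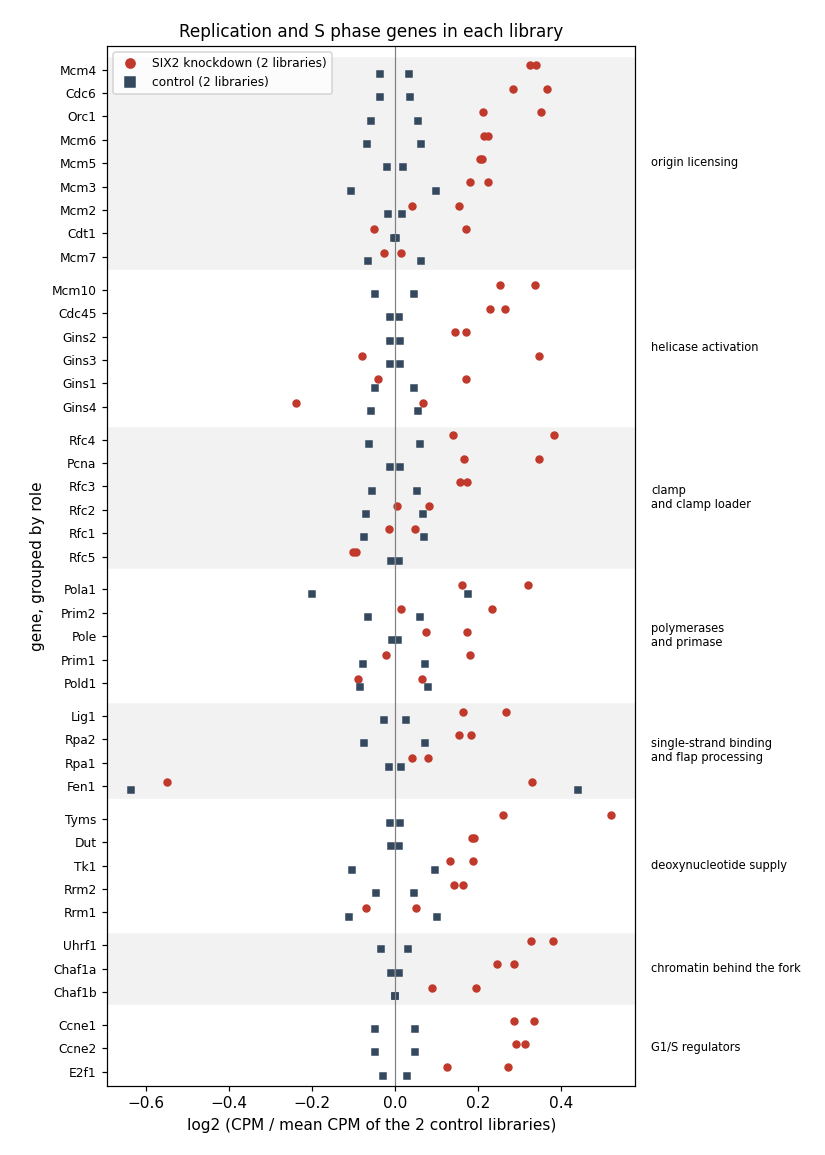
Level of each of the 41 genes in each of the 4 libraries as log2 of its CPM over the mean CPM of the control libraries; red circles are SIX2 knockdown libraries, dark squares control libraries, and genes are grouped by role and ordered by fold change within it. Most red pairs lie right of the dark pairs, Rfc5 lies left of them, and the libraries of Fen1 spread widely within both groups.

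Of the 9 origin licensing genes 6 were past the unadjusted limit, with a median log2 fold change of 0.21. This share of 66.7% was the same in the chromatin and G1/S roles described further on. Over all genes tested 7.52% were past it in the higher direction, and 11.9% of those at or above 21.5 CPM. The same background applies to the counts of each role that follows. Mcm4, a subunit of the MCM ring, stood at 281 and 283 CPM in knockdown libraries, against 229 and 219 CPM in control libraries. Both knockdown libraries lay above both controls and the replicates were close, with a log2 fold change of 0.33 ± 0.07 (SE, adjusted p = 0.0994). Cdc6, the loading ATPase that is made anew in each G1, had 78.0 and 73.7 CPM in knockdown and 59.0 and 62.0 CPM in control libraries. The groups did not overlap here either, and the log2 fold change was 0.33 ± 0.08 (SE, adjusted p = 0.164). Mcm3, the subunit with the highest level per transcript length, had 396 and 384 CPM in knockdown and 363 and 315 CPM in control libraries. Its controls were further apart than its knockdown libraries, and its log2 fold change of 0.20 ± 0.09 (SE) just met the unadjusted limit (adjusted p = 0.351 by edgeR). It missed that limit with DESeq2 (unadjusted p = 0.0548) and limma-voom (unadjusted p = 0.0514). By edgeR it also missed it with RLE in place of TMM size factors (unadjusted p = 0.0585). The same held for edgeR with library totals alone (0.0820) and with at least 10 CPM in 2 libraries (0.0665). Mcm3 met the limit by edgeR with no filter on low counts. Over the 16 fits its log2 fold change ran from 0.11 to 0.31.

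The other licensing genes past the unadjusted limit were Mcm5, Mcm6 and Orc1, the origin-binding ATPase, at log2 fold changes of 0.21, 0.22 and 0.28. Mcm5 was especially tight, with 399 and 400 CPM in knockdown libraries and 351 and 342 CPM in control libraries. Mcm2 and Cdt1 had smaller values, 0.10 and 0.06, and in Cdt1 the groups overlapped. Mcm7 stood close to 0: it had 222 and 228 CPM in knockdown libraries and 236 and 216 CPM in control libraries. Its knockdown values lay between the control values, and the log2 fold change was -0.01 ± 0.08 (SE). Mcm7 overlaps Cops6 and Ap4m1 on the opposite strand and hosts 3 microRNA genes, and Cdt1 overlaps the gene model Gm20388 on its own strand, and the part of read assignment in these values was not tested.

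Per transcript length the 6 subunits of the MCM ring were not equal, although the ring holds 1 copy of each. In FPKM, Mcm3 averaged 92.4 ± 2.31 in knockdown and 82.2 ± 7.62 in control libraries, Mcm5 88.8 ± 0.0850 and 78.8 ± 0.855, and Mcm6 82.2 ± 0.170 and 72.3 ± 4.05 (SD, n = 2 each). Mcm4 followed with 69.8 ± 0.229 FPKM in knockdown and 56.8 ± 1.52 in control libraries. Mcm7 had 45.1 ± 0.781 and 46.4 ± 2.56 FPKM and Mcm2 38.8 ± 2.27 and 37.1 ± 0.326, and the level of Mcm3 was 2.30 times that of Mcm2 over all libraries. The ranges of Mcm3, Mcm5, Mcm6 and Mcm4 each overlapped the next in this order over the 4 libraries, whereas Mcm4, Mcm7 and Mcm2 were separate. These ranges pool both groups. Within each library Mcm5 stood above Mcm6, and Mcm6 above Mcm4. Mcm3 was below Mcm5 in control 2 (76.8 against 78.2 FPKM) and above it in the other libraries.

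Helicase activation held 6 genes, of which 2 were past the unadjusted limit and the median log2 fold change was 0.15. Mcm10, which helps the assembled helicase to fire, had 75.6 and 80.2 CPM in knockdown libraries and 65.5 and 61.4 CPM in control libraries. Cdc45, the helicase partner that binds at firing, had 131 and 135 CPM in knockdown libraries and 111 and 113 CPM in control libraries. The groups were separate for both, at log2 fold changes of 0.30 ± 0.09 and 0.25 ± 0.07 (SE, adjusted p = 0.201 and 0.203). The GINS subunits, which bind beside Cdc45, were less uniform. Gins1 had 59.1 and 68.5 CPM in knockdown and 58.8 and 62.8 CPM in control libraries, and Gins4 had 35.7 and 44.1 CPM in knockdown and 40.5 and 43.8 CPM in control libraries.

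Both pairs overlapped between groups, with log2 fold changes of 0.07 ± 0.10 for Gins1 and -0.08 ± 0.13 for Gins4 (SE). Gins2 was separate between groups at 0.16, with 83.0 and 81.4 CPM in knockdown and 74.3 and 73.1 CPM in control libraries, and Gins3, at 0.15, overlapped because its knockdown libraries stood at 19.3 and 25.9 CPM. Per transcript length the GINS subunits differed more than those of the MCM ring: Gins1, the highest, was 5.18 times Gins3, the lowest, and all neighbours in the order Gins1, Gins4, Gins2 and Gins3 were separate over the 4 libraries.

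**Figure D4:**
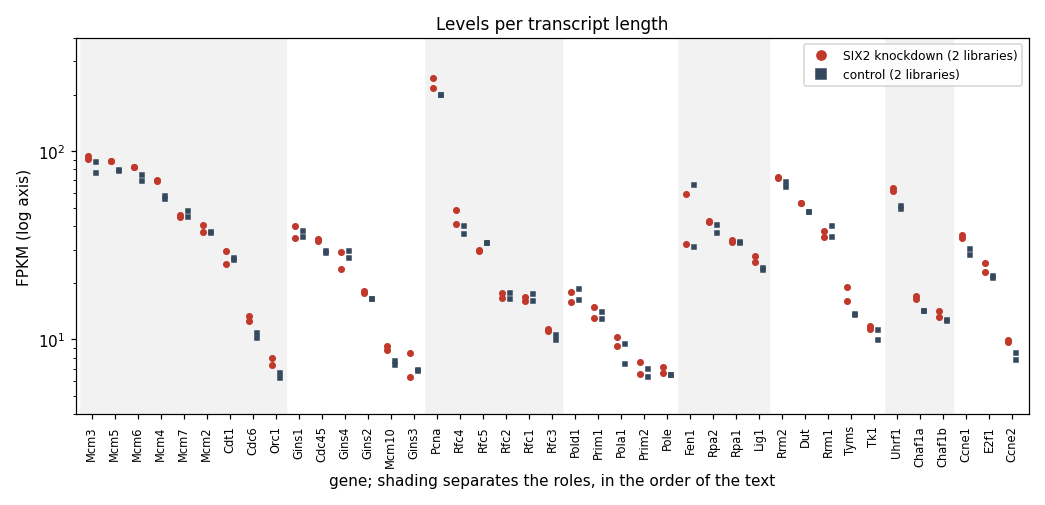
Level of each of the 41 genes in FPKM, a unit that corrects for transcript length, on a log axis; red circles (left of each position) are SIX2 knockdown libraries and dark squares control libraries, and shading separates the roles. Pcna is the highest at 198 to 246 FPKM.

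The sliding clamp gene Pcna was the most abundant of the list per transcript length, at 218 and 246 FPKM in knockdown libraries and 199 and 198 FPKM in control libraries. In CPM it stood at 588 and 666 in knockdown libraries, against 529 and 519 in control libraries. The knockdown values were apart from each other but both lay above the controls, with a log2 fold change of 0.26 ± 0.08 (SE, adjusted p = 0.225). A processed pseudogene with a like sequence, Pcna-ps2, held 537 and 262 counts in knockdown and 402 and 304 in control libraries, against 43537 and 42188 counts of Pcna in knockdown and 40338 and 32120 in control libraries. Pcna lies on chromosome 2 (132249162 to 132253314, minus strand, GRCm38).

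Among the clamp loader subunits, which open PCNA around DNA, 1 of 5 was past the unadjusted limit. Rfc4 had 71.2 and 84.2 CPM in knockdown libraries and 61.9 and 67.4 CPM in control libraries, a log2 fold change of 0.27 ± 0.11 (SE, adjusted p = 0.335). Its groups were separate by a small margin. Rfc4 missed the unadjusted limit with DESeq2 (unadjusted p = 0.0509) and limma-voom (unadjusted p = 0.0537). By edgeR it also missed it with library totals alone and with at least 10 CPM in 2 libraries. It met the limit by edgeR with RLE in place of TMM size factors and with no filter on low counts. Rfc5 had 156 and 157 CPM in knockdown libraries and 168 and 166 CPM in control libraries. It was the 1 member whose knockdown libraries both lay below the controls, at a log2 fold change of -0.10 ± 0.07 (SE, adjusted p = 0.599), and it was below 0 in all 16 fits. Rfc1, the large subunit, and Rfc2 had values of 0.02 and 0.04 with overlapping groups, and Rfc3 0.16 with separate ones. Rfc4 and Rfc5 overlap Eif4a2 and Wsb2 on the opposite strand.

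None of the 5 polymerase and primase genes was past the unadjusted limit, and their median log2 fold change was 0.12. Pola1, the catalytic subunit of the polymerase that extends primers, had 91.6 and 102 CPM in knockdown libraries and 92.4 and 71.3 CPM in control libraries. The control libraries differed more from each other than the groups did, and the log2 fold change was 0.24 ± 0.14 (SE, adjusted p = 0.498). Pole, of the leading-strand polymerase, had 89.9 and 83.9 CPM in knockdown and 80.2 and 79.3 CPM in control libraries, separate but by little (0.12 ± 0.08, SE). Pold1, of the lagging-strand polymerase, had 97.1 and 87.3 CPM in knockdown and 87.6 and 98.1 CPM in control libraries. These values interleaved, at -0.01 ± 0.10 (SE). The primase genes Prim1 and Prim2 had 0.08 and 0.13, with groups that overlapped.

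Of the genes for single-strand binding and flap processing, Lig1, the ligase that seals lagging-strand pieces, was past the unadjusted limit. It had 134 and 125 CPM in knockdown libraries and 113 and 109 CPM in control libraries, a log2 fold change of 0.22 ± 0.08 (SE, adjusted p = 0.279) with separate groups. By edgeR with library totals alone Lig1 missed that limit (unadjusted p = 0.0521). The single-strand binding genes Rpa2 and Rpa1 had 0.17 and 0.06, both with separate groups. Rpa2 stood at 141 and 144 CPM in knockdown and 134 and 121 CPM in control libraries. Fen1, the flap endonuclease, was unlike every other member: it had 162 and 87.9 CPM in knockdown libraries and 82.8 and 174 CPM in control libraries. A high and a low library stood in each group, so the log2 fold change of -0.04 had an SE of 0.62. Fen1 (chromosome 19, 10199132 to 10204169, minus strand, GRCm38) overlaps the first bases of Tmem258 and an antisense model, Gm10143, on the opposite strand. Tmem258 had 12040 and 10826 counts in knockdown and 14363 and 12240 in control libraries, and Gm10143 had 39 and 64 in knockdown and 52 and 7 in control libraries, so neither was high in knockdown 1 and control 2 as Fen1 was; the source of the Fen1 split was not tested.

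Deoxynucleotide supply had 2 of 5 genes past the unadjusted limit and a median of 0.16. Tyms, thymidylate synthase, had the highest fold change of the list, with 109 and 131 CPM in knockdown libraries and 92.1 and 90.4 CPM in control libraries. The controls nearly coincided while the knockdown libraries were apart, both above them, at a log2 fold change of 0.40 ± 0.10 (SE, adjusted p = 0.162). Dut, the dUTPase that keeps uracil out of DNA, had 143 and 144 CPM in knockdown and 127 and 125 CPM in control libraries (0.19 ± 0.07, SE). By edgeR Dut missed the unadjusted limit with library totals alone (unadjusted p = 0.0631) and with at least 10 CPM in 2 libraries (0.0556). Rrm2, the S phase subunit of ribonucleotide reductase, had 228 and 224 CPM in knockdown and 209 and 197 CPM in control libraries, at 0.15 ± 0.07 (SE, unadjusted p = 0.0690). Its partner Rrm1 had 432 and 469 CPM in knockdown libraries and 486 and 420 CPM in control libraries. The knockdown values lay inside the range of the controls, at -0.01 ± 0.09 (SE). Per transcript length Rrm2 was the higher of the pair, at 72.3 ± 1.02 FPKM in knockdown and 66.6 ± 2.47 in control libraries, against 36.3 ± 2.01 and 37.4 ± 3.59 FPKM for Rrm1 (SD, n = 2 each). Tk1, thymidine kinase, had 66.2 and 68.9 CPM in knockdown and 64.6 and 56.3 CPM in control libraries, at 0.16.

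All 3 genes that restore chromatin behind the fork had separate groups with knockdown above control, as had 23.8% of all genes tested. Among tested genes at or above 21.5 CPM that share was 31.5%. Uhrf1, which reads half-methylated DNA and recruits the maintenance methyltransferase, had 307 and 296 CPM in knockdown libraries and 241 and 231 CPM in control libraries. The gap between the groups was several times the gap between replicates, with a log2 fold change of 0.35 ± 0.07 (SE, adjusted p = 0.0896), and Uhrf1 was called by DESeq2 (adjusted p = 0.000521) and by edgeR with no filter on low counts (adjusted p = 0.0493). Over the 16 fits its log2 fold change ran from 0.31 to 0.39. Uhrf1 lies on chromosome 17 (56303321 to 56323486, plus strand, GRCm38) and overlaps no other gene model. Chaf1a, the large subunit of the histone chaperone CAF-1, had 169 and 164 CPM in knockdown and 139 and 137 CPM in control libraries (0.27 ± 0.07, SE, adjusted p = 0.171). Its partner Chaf1b had 74.4 and 69.1 CPM in knockdown and 65.0 CPM in both control libraries, at 0.14.

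The 3 regulators of the G1 to S transition were separate in the same direction, as were 23.8% of all genes tested and 31.5% of those at or above 21.5 CPM. Ccne1, cyclin E1, had 108 and 104 CPM in knockdown libraries and 82.7 and 88.5 CPM in control libraries. Ccne2, cyclin E2, had 38.8 and 38.3 CPM in knockdown and 30.2 and 32.3 CPM in control libraries. Neither pair overlapped, and the log2 fold changes were 0.31 ± 0.08 and 0.30 ± 0.10 (SE, adjusted p = 0.162 and 0.255). Per transcript length Ccne1 was 3.61 times Ccne2. E2f1, the activating transcription factor of this programme, had 89.9 and 81.3 CPM in knockdown and 76.0 and 73.0 CPM in control libraries, separate at 0.20 ± 0.09 (SE, unadjusted p = 0.0584).

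The number of genes past the unadjusted limit depended on the processing and on the libraries. Against 17 in the main fit, it was 12 with library totals alone and 13 with at least 10 CPM in 2 libraries. With DESeq2 it was 14, and 15 with limma-voom, with RLE in place of TMM size factors, or when edgeR was not robust. It was 14 without control 1, 8 without control 2, 10 without knockdown 1 and 9 without knockdown 2, in fits that assume the remaining library of a group varies like the other group; none was past it in the lower direction in any of these. The 6 genes called by DESeq2 were Uhrf1, Mcm4, Chaf1a, Ccne1, Tyms and Cdc6 (adjusted p from 0.000521 to 0.0388). Of the 41 genes, 20 overlap another gene model on either strand; among the remaining 21 the median was 0.20 and 11 were past the unadjusted limit (this subset was picked with the values known).

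Other replication genes, which were not on the list, leaned the same way with smaller values. Of 33 such genes 0 passed over all genes by edgeR, and the median log2 fold change was 0.11. In the higher direction 6 (18.2%) were past the unadjusted limit, and 1 in the lower. Of all genes tested 7.52% were past it in the higher direction and 6.7% in the lower. Among those at or above 21.5 CPM the shares were 11.9% and 6.69%. Orc2, an origin recognition subunit, had 152 and 172 CPM in knockdown libraries and 121 and 131 CPM in control libraries, separate at 0.37 ± 0.09 (SE, adjusted p = 0.144). Rnaseh2b, of the enzyme that removes ribonucleotides from DNA, had 48.7 and 53.7 CPM in knockdown and 41.4 and 42.3 CPM in control libraries (0.29 ± 0.10, SE). The gene in the lower direction was Pold4, a small polymerase delta subunit, named after its values were seen, with 27.9 and 23.4 CPM in knockdown and 33.5 and 30.9 CPM in control libraries. Of 13 replication-coupled chromatin genes 0 passed by edgeR, and the median was 0.10. Past the unadjusted limit were 2 (15.4%), both higher, against the same 7.52% and 11.9% in the background. These 2 were Hells, a chromatin remodeller, at 238 and 243 CPM in knockdown and 205 and 183 CPM in control libraries, and Nasp, a histone chaperone, at 222 and 253 CPM in knockdown and 190 and 208 CPM in control libraries.

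Of 26 other nucleotide metabolism genes 1 rose over all genes, 7 were past the unadjusted limit in the higher direction and 1 in the lower, with a median of 0.12; of all genes tested 0.407% rose and 7.52% were past the unadjusted limit in the higher direction. With DESeq2 3 genes of this list were called, and on either log2 FPKM scale 0. The gene that rose was Tymp, thymidine phosphorylase, which breaks thymidine down, with 16.2 and 14.8 CPM in knockdown libraries and 1.91 and 1.75 CPM in control libraries (8.46-fold, adjusted p = 0.00373 by edgeR). Its gene model overlaps that of Sco2 on the same strand, so reads of the pair may be split between them. Umps, of pyrimidine synthesis, had 193 and 201 CPM in knockdown and 151 and 160 CPM in control libraries, at 0.34 ± 0.07 (SE, adjusted p = 0.107). The lower gene was Adsl, of purine synthesis, named after its values were seen, with 152 and 161 CPM in knockdown and 190 and 184 CPM in control libraries.

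Of 25 other G1/S and E2F-RB genes 24 were tested, and 2 rose over all genes, Ccnd2 and Skp2. Ccnd2, cyclin D2, had 155 and 160 CPM in knockdown and 93.1 and 85.6 CPM in control libraries, and Skp2, which marks the CDK inhibitor p27 for destruction, had 84.9 and 88.4 CPM in knockdown and 57.8 and 55.3 CPM in control libraries (adjusted p = 0.0152 and 0.0299 by edgeR, against 0.407% of all genes tested that rose). These calls were not stable: 1 of the list was called with limma-voom, 0 when edgeR was not robust, 0 on either log2 FPKM scale, 0 without control 2 or knockdown 2, and 1 without control 1 or knockdown 1. The count stayed at 2 with DESeq2, RLE in place of TMM size factors, library totals alone, no filter on low counts and at least 10 CPM in 2 libraries. Of all genes tested 7.52% were past the unadjusted limit in the higher direction and 6.7% in the lower. In this list 8 genes (33.3%) were past it in the higher direction and 3 in the lower, with a median of 0.14. Those 3, named after their values were seen, were the RB family genes Rb1 and Rbl2, at -0.38 and -0.29, and Myc, which had 1.07 and 0.632 CPM in knockdown and 1.85 and 2.47 CPM in control libraries.

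Of 25 genes of G2 and mitosis tested, 0 passed by edgeR, 1 was past the unadjusted limit, and the median log2 fold change was 0.07, with 21 above 0. That gene was Foxm1, a mitotic transcription factor, at 59.3 and 53.2 CPM in knockdown and 44.6 and 35.7 CPM in control libraries (0.49 ± 0.13, SE, adjusted p = 0.174). Cdca8, of the chromosomal passenger complex, followed with 157 and 150 CPM in knockdown and 139 and 135 CPM in control libraries. The share past the unadjusted limit in the higher direction was 41.5% in the replication and S phase list and 4.0% in the mitosis list. It was 7.52% over all genes tested and 11.9% over those at or above 21.5 CPM, a level that every mitosis gene exceeded. The share above 0 was close in both lists, at 35 of 41 and 21 of 25. It was 48.9% over all genes tested and 56.7% over those at or above 21.5 CPM. The difference between the lists was not tested.

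**Figure D5:**
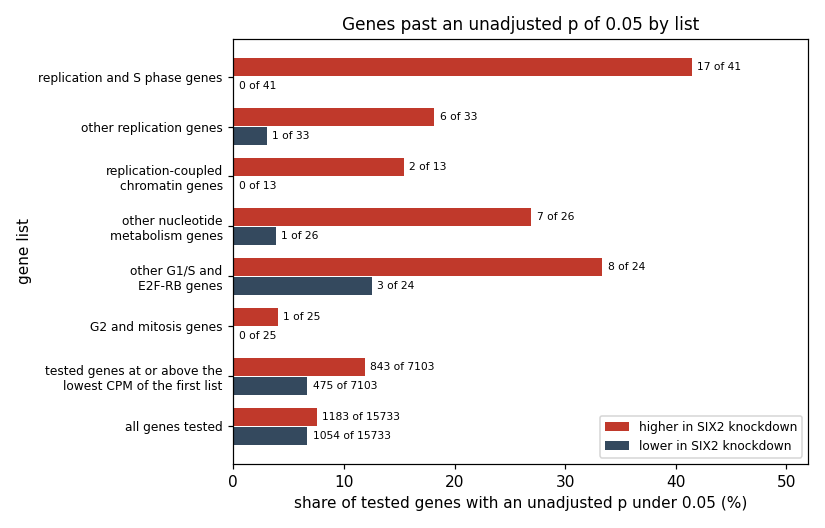
Share (%) of the tested genes of each list with an unadjusted p under 0.05 in edgeR's test, higher (red) and lower (dark) in SIX2 knockdown, with the number of genes beside each bar and all genes tested at the bottom. The replication and S phase list stands at 17 of 41 higher and 0 of 41 lower, and the G2 and mitosis list at 1 of 25 and 0 of 25.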

How the data were processed

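The members and lists were chosen with earlier results of these data known. Per the labels' protocols, poly(A) RNA was captured with oligo-dT beads and sequenced paired-end after strand marking with dUTP. The authors deposited estimated counts per Ensembl gene, whole numbers that were not normalised, and values named FPKM per the file headers, a unit scaled to length and library size. Bowtie 0.12.2 and build mm8 are named per the submitters' processing notes; no source names the program that counted reads, or says whether it used strand. Coordinates of 21093 of 24422 genes (86.4%), and of 36 of the 41 members, were identical to GENCODE M21 on GRCm38, so that build is named. Another 12 columns match no labelled sample and were not used.

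The main test was edgeR 4.0.16 (R 4.3.3). It kept genes by filterByExpr, scaled libraries by TMM, fitted a robust quasi-likelihood model to the 4 libraries with no covariate, and used Benjamini-Hochberg adjustment over all 15733 genes tested. SE were derived from the fit's F statistic. The procedure was tested on simulated data. Alternatives used DESeq2 1.42.0, limma 3.58.1 and the settings in the closing section. Values in every library are given for the 2 members of each role with the lowest p, its highest by FPKM, and each below 0, and for some others named after their values were seen; of the other lists, for changed genes and the 2 lowest p. The background at or above 21.5 CPM was chosen after the data were seen. Replicates differed beyond counting error: chi-square over its degrees of freedom was 16.8 between knockdown and 16.1 between control libraries, counted in fragments. E2F and other motifs were matched as exact letters.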

Additional observations from a re-analysis of the deposited data

How the results depend on the processing

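The count of all genes changed was 150. It was 806 with DESeq2, 65 with limma-voom, 297 with no filter on low counts, 3 by limma on log2(FPKM + 1), 3 on log2(FPKM + 0.1), 7 when edgeR was not robust, 7 at an adjusted p under 0.01, and 41 to 112 when 1 library was left out. The 0 members changed became 6 with DESeq2 and 1 with no filter. The 17 members past the unadjusted limit in the higher direction became 6 at a limit of 0.01, 8 to 14 with 1 library left out and 11 among the 21 that overlap no other gene model; the count in the lower direction was 0 in each setting run. The median log2 fold change of the members, 0.16, was 0.13 with library totals alone, 0.14 with at least 10 CPM in 2 libraries, 0.12 on log2(FPKM + 1), 0.13 on log2(FPKM + 0.1), 0.15 with counts divided by 4, 0.20 without members that overlap another gene model, and 0.15 to 0.20 with 1 library left out. The differences between replicates 1 and 2 were nearly uncorrelated between the groups (r = 0.05 across genes). Whether same-numbered libraries were prepared together is not stated and was not tested. With the replicate block 0 genes were called, and 16 members were past the unadjusted limit. Of 25 named members 19 kept their direction in each setting run. The others, none called, changed sign. Fen1 was 0.017 with limma-voom. With 1 library left out, Fen1 ran from -0.55 (without knockdown 1) to 0.59 (without control 2), Gins1 from -0.037 (without knockdown 2) to 0.17 (without knockdown 1) and Gins4 from -0.23 (without knockdown 2) to 0.064 (without knockdown 1). Mcm7 ran from -0.066 (without control 2) to 0.059 (without control 1), Pold1 from -0.092 (without knockdown 1) to 0.076 (without control 2) and Rrm1 from -0.11 (without control 2) to 0.10 (without control 1). Members outside these 25 also changed sign. Rfc1 was above 0 in 10 of the 16 fits, and Cdt1, Gins3, Prim1 and Rfc2 each in 15. Beyond leaving out libraries and members, the cause of these shifts was not tested. With 2 libraries a group, an exact permutation test of a single gene cannot give a p below 0.333, so calls rest on the fit across genes.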

Other observations

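Other promoter motifs were searched in the same RefSeq windows on both strands. The CCAAT box, bound by NF-Y, was present in 20 of 33 members with a window (60.6%), against 43.3% of tested genes and 41.1% of all genes with a window. The CHR element of mitotic genes, as TTTGAA or TTCGAA, was present in 6 of 33 members (18.2%), against 16.9% and 21.7%. The median log2 fold change was 0.12 over members with a CHR match and 0.20 over those without. These are descriptions of letters in a window, with no test.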
